A study of Mus musculus with 19 samples.

Results

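The genes described here encode subunits of respiratory complexes III, IV and V in mouse gastrocnemius, a calf muscle, measured on Illumina bead arrays in which many beads carry each probe and 1 biotin-labelled RNA sample is read per array. Members were all target names of the deposited table that begin with UQCR, COX4, COX5, COX6, COX7, COX8 or ATP5. They came to 40 of 30774 target names and were covered by 57 probes. A target was tested when at least 1 of its probes was detected above background (p under 0.05) on 3 or more of the 19 arrays, and the brightest such probe stood for the gene. This left 36 members among 15287 tested targets: 5 of complex III, 14 of complex IV counting the supercomplex factor Cox7a2l, 14 of complex V, and 3 that share a name stem without being subunits. Uqcrfs1, the Rieske iron-sulfur protein of complex III, Uqcrq, a small complex III subunit, Cox7b2 and Cox8c had no probe that met this detection rule and were not tested.

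All animals were CD1 mice aged 2 months, and 4 of the 5 groups had received a locked nucleic acid (LNA) oligonucleotide of 15 bases by tail vein, at 12 mg/kg in 200 µl of saline, 2 days ahead of surgery in which the left femoral artery was dissected. The oligonucleotide was either anti-miR-210, which is complementary to the microRNA miR-210, or a scrambled sequence, and the muscle was collected 3 days later. The groups were anti-miR-210 ischemic, scramble ischemic, anti-miR-210 non-ischemic and scramble non-ischemic muscle with 4 arrays each, and untreated muscle with 3 arrays. No label states whether the non-ischemic muscle came from the opposite limb of operated mice or whether each array stands for a separate mouse. The p-values therefore reflect only the scatter among these samples, and that scatter may be technical.

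Complexes III and IV pass electrons from ubiquinol through cytochrome c to oxygen and pump protons across the inner mitochondrial membrane, and complex V, the ATP synthase, uses the proton gradient to make ATP. Several complex IV subunits exist as tissue isoforms encoded by separate genes: Cox6a2, Cox7a1 and Cox8b are the forms of striated muscle, whereas Cox6a1 and Cox7a2 are expressed in most tissues. miR-210 is a microRNA induced by hypoxia, and Cox10, which takes part in making the heme A of complex IV, is a reported target of it in human cells.

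The mature microRNA, both injected oligonucleotides and their match are shown because they define what was tested. Mature mouse miR-210 lies on the minus strand at chr7:141221407-141221428 (RefSeq, GRCm38.p6), and its seed, bases 2 to 8, is in capitals. In the anti-miR-210 oligonucleotide the capitals mark bases 9 to 15, which face that seed.
mmu-miR-210-3p: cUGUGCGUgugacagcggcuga
anti-miR-210: gctgtcacACGCACA
scramble: cgtctagccacctag
The anti-miR-210 oligonucleotide was complementary to bases 2 to 16 of the microRNA without a mismatch. The longest stretch of the scrambled oligonucleotide complementary to the microRNA was 4 bases.

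Levels are given below as normalised log2 intensities, on which the weakest signals sit near 4.4 to 4.65, and changes as differences of log2 levels with their standard error (SE). A member is called when its limma p-value, adjusted by the Benjamini-Hochberg method over all 15287 targets, is under 0.05. Arrays differed in brightness before normalisation: the mean deposited intensity was 229.5 ± 37.7 in anti-miR-210 ischemic, 153.9 ± 28.6 in scramble ischemic, 204.4 ± 24.2 in anti-miR-210 non-ischemic and 226.4 ± 16.2 in scramble non-ischemic muscle (SD, n = 4 each), and 253.1 ± 43 in untreated muscle (SD, n = 3). The share of probes detected ran between 32.1% and 42.3%. Transcripts typical of liver were present on the 3 untreated arrays, with mean log2 levels of 8.4, 10.42 and 12.22 over 11 markers, and on scramble non-ischemic replicate 1, at 7.94, while the mean was 4.28 to 4.67 on the other arrays. The 9 skeletal muscle markers were detected on all 19 arrays.

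In mice given the scrambled oligonucleotide, most members were lower in ischemic muscle. Of 36 tested members, 30 fell and 4 rose, and the other 2 were not called. Their median log2 change was -1.25, whereas the median over all tested targets was 0.01. Among all tested targets 24.5% were called lower and 26.7% higher. In all 30 members that fell, every scramble ischemic array lay below every scramble non-ischemic array, an arrangement seen for 23.3% of all tested targets. By complex, 4 of 5 complex III members fell (median -1.3), 11 of 14 complex IV members (median -1.14) and 13 of 14 complex V members (median -1.12). Without scramble non-ischemic replicate 1, the array with liver transcripts, 30 members again fell and the median was -1.28.

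The response after anti-miR-210 ran the same way, in arrays not shared with the scramble comparison. Here 30 members fell and 3 rose, the other 3 were not called, and the median log2 change was -1.1 beside 0.01 for all tested targets. The background was 24.3% of targets called lower and 26.2% called higher. In 28 members all anti-miR-210 ischemic arrays lay below all anti-miR-210 non-ischemic arrays, against 20.5% of all tested targets. The 2 members called lower with overlapping arrays were Cox7a2l and Atp5l.

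**Figure D1:**
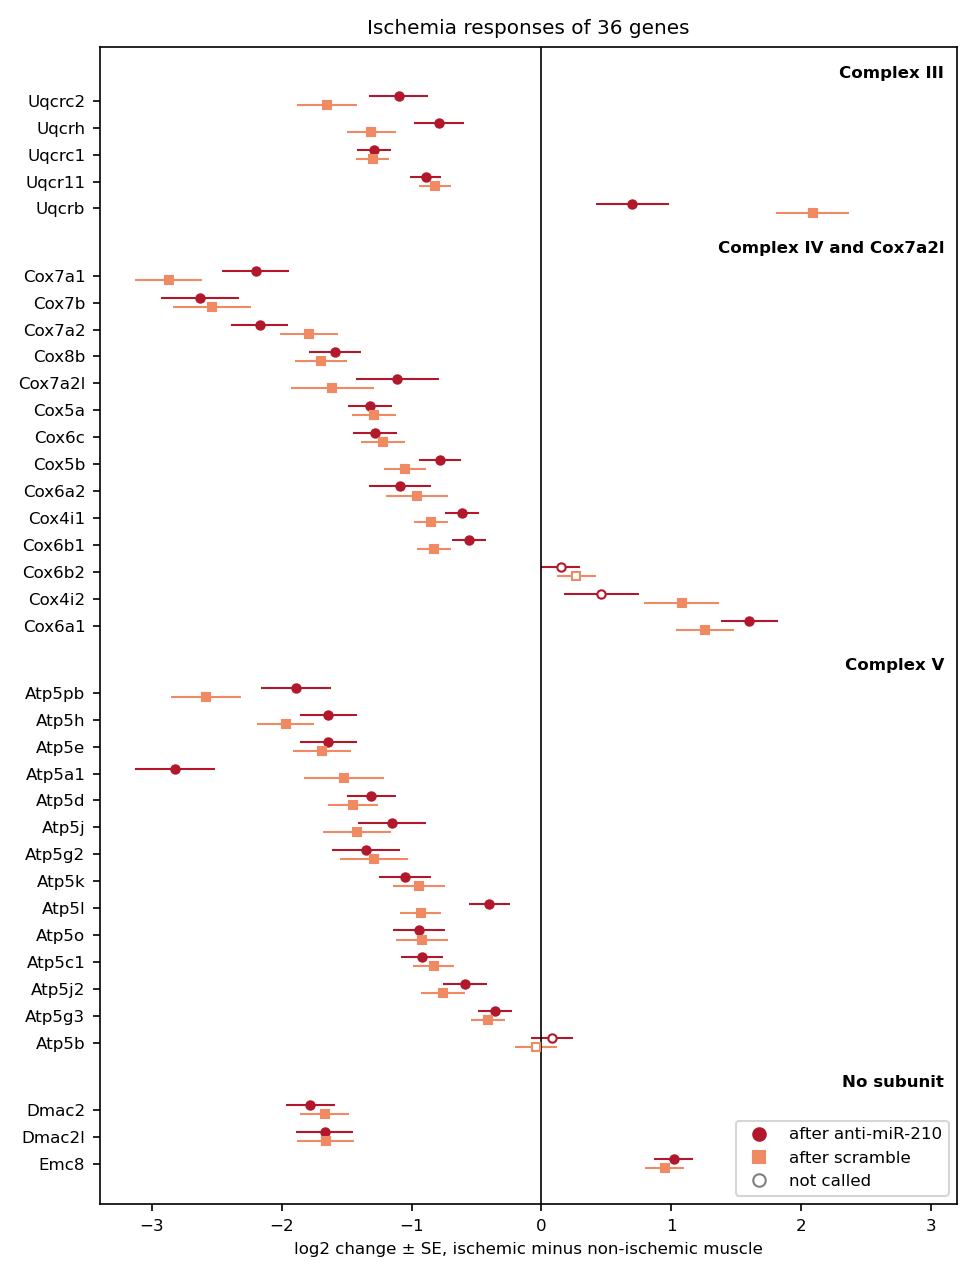
Log2 change of ischemic minus non-ischemic muscle (x axis, ± SE) for the 36 tested members (y axis), grouped by complex, after anti-miR-210 (circles) and after scramble (squares); open symbols were not called. Most symbols lie left of 0, and Uqcrb, Cox6a1, Cox4i2, Cox6b2 and Emc8 lie right of 0 in both comparisons.

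Muscle is a mixture of cells, so fewer cells of a type and less RNA per cell cannot be told apart. Macrophage markers moved with ischemia: 10 of 10 tested were higher after anti-miR-210 and 9 of 10 after scramble. Their summed linear level was 5144 to 18142 in anti-miR-210 ischemic, 5163 to 13318 in scramble ischemic, 537 to 635 in anti-miR-210 non-ischemic and 414 to 711 in scramble non-ischemic muscle. All 5 tested neutrophil markers and all 6 dividing-cell markers were also higher in both ischemia comparisons, and Mki67, Top2a and Ccnb1 were undetected on every non-ischemic array. Endothelium markers were higher for 3 of 5 in both comparisons and myogenic markers for 3 of 5 in both. Fibroblast markers were higher for 6 of 6 after anti-miR-210 and 2 of 6 after scramble, adipocyte markers for 1 of 3 and 3 of 3, and lymphocyte markers for 1 of 3 and 0 of 3. The summed level of the 9 skeletal muscle markers was 73892 to 79887 in anti-miR-210 ischemic, 64622 to 84902 in scramble ischemic, 96586 to 107590 in anti-miR-210 non-ischemic and 94575 to 104697 in scramble non-ischemic muscle. Of these muscle markers, 3 of 9 fell after anti-miR-210 (median -0.2) and 5 of 9 after scramble (median -0.57), with 1 higher in each. Their part in the members' changes was not tested.

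Within complex III, Uqcrc1 and Uqcrc2, which encode the large core proteins, fell by similar amounts. The Uqcrc2 level was 11.98, 11.28, 11.8 and 10.65 in anti-miR-210 ischemic muscle, against 12.44, 12.5, 12.43 and 12.74 in non-ischemic muscle after anti-miR-210. It was 11.32, 11.41, 10.84 and 10.68 in scramble ischemic muscle, against 12.61, 12.69, 12.88 and 12.66 in scramble non-ischemic muscle. The ischemic arrays lay below the non-ischemic ones without overlap after either oligonucleotide, and the log2 changes were -1.1 ± 0.23 (adjusted p = 0.000418) and -1.65 ± 0.23 (adjusted p = 5.41e-06). Uqcrc1 changed by -1.29 ± 0.13 after anti-miR-210 and by -1.3 ± 0.13 after scramble. Uqcrh, the hinge protein beside cytochrome c1, changed by -0.79 ± 0.19 and -1.31 ± 0.19 in the same order.

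Uqcr11, the smallest subunit of the complex, had the smallest change in complex III after scramble. Its level was 12.25, 12.08, 12.36 and 12.33 in anti-miR-210 ischemic muscle, against 13, 13.08, 13.24 and 13.27 in non-ischemic muscle after anti-miR-210. After scramble the levels were 11.96, 12.35, 12.39 and 12.17 in ischemic muscle, against 13.03, 13, 13.01 and 13.08 in non-ischemic muscle. The groups were apart in both comparisons, and the log2 changes were -0.89 ± 0.12 and -0.82 ± 0.12.

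Uqcrb, a ubiquinone-binding subunit of complex III, ran against the rest of its complex. Its level was 7.81, 7.38, 8.36 and 8.83 in scramble ischemic muscle, against 6.17, 5.94, 6 and 5.92 in scramble non-ischemic muscle. All scramble ischemic arrays were higher, by 2.09 ± 0.28 on the log2 scale or 4.25-fold (adjusted p = 4.78e-06). After anti-miR-210 the level was 6.88, 6.49, 6.06 and 7.63 in ischemic muscle, against 6.32, 5.99, 6.05 and 5.89 in non-ischemic muscle. These groups overlapped, the change was 0.7 ± 0.28 (adjusted p = 0.0462), and the call was lost without either of anti-miR-210 ischemic replicates 1 and 4 or anti-miR-210 non-ischemic replicates 2, 3 and 4 (adjusted p = 0.0795 to 0.204). It was also lost with quantile normalisation alone (0.42, adjusted p = 0.105) and with the processed values (0.46, adjusted p = 0.0833). The same held with no filter on dim probes (adjusted p = 0.104) and with only the groups compared in the fit (adjusted p = 0.0757). Uqcrb was read by 1 probe, and its mean deposited intensity was 215.1 in anti-miR-210 ischemic, 225.7 in scramble ischemic, 114.4 in anti-miR-210 non-ischemic and 124.5 in scramble non-ischemic muscle.

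Complex IV held the member with the largest fall after scramble and also 2 of the 3 subunits that rose. Cox7a1, the striated-muscle form of subunit VIIa, had levels of 10.3, 10.82, 10.78 and 9.52 in scramble ischemic muscle, against 13.2, 13.37, 13.29 and 13.03 in scramble non-ischemic muscle. Every ischemic array lay far below the non-ischemic ones, and the log2 change was -2.87 ± 0.26, or 7.3-fold lower (adjusted p = 4.57e-08). After anti-miR-210 the levels were 11.23, 10.5, 11.28 and 10.07 in ischemic muscle, against 13.08, 12.78, 13.07 and 12.96 in non-ischemic muscle. The groups were again apart, and the change was -2.2 ± 0.26, or 4.61-fold lower (adjusted p = 1.13e-06). Untreated muscle had Cox7a1 levels of 13.31, 13.23 and 13.05, within the range of the scramble non-ischemic arrays.

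Its counterpart in other tissues, Cox7a2, fell as well. The Cox7a2 level was 6.55, 5.9, 6.33 and 5.6 in anti-miR-210 ischemic muscle, against 8.27, 8.57, 7.89 and 8.32 in non-ischemic muscle after anti-miR-210. It was 6.39, 6.6, 5.95 and 6.67 in scramble ischemic muscle, against 7.9, 8.18, 8.4 and 8.28 in scramble non-ischemic muscle. The arrays did not overlap in either comparison, with changes of -2.17 ± 0.22 (adjusted p = 1.44e-07) and -1.79 ± 0.22 (adjusted p = 1.42e-06). Untreated muscle had Cox7a2 levels of 8.23, 8.06 and 7.56.

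Cox6a2 and Cox6a1, the striated-muscle and general forms of subunit VIa, moved in opposite directions. The Cox6a2 level was 12.31, 12.32, 13.41 and 12.47 in anti-miR-210 ischemic muscle, against 13.79, 13.93, 13.48 and 13.68 in non-ischemic muscle after anti-miR-210. It was 13.22, 12.93, 12.71 and 11.95 in scramble ischemic muscle, against 13.59, 13.72, 13.77 and 13.57 in scramble non-ischemic muscle. Cox6a2 was lower without overlap in both comparisons, although anti-miR-210 ischemic replicate 3 came close to its non-ischemic group. The changes were -1.09 ± 0.24 (adjusted p = 0.000934) and -0.96 ± 0.24 (adjusted p = 0.00264), and the call after scramble was lost with cyclic loess normalisation (-0.38, adjusted p = 0.22) and with array brightness as a covariate (-0.49, adjusted p = 0.164).

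The Cox6a1 level was 10.93, 11.11, 11.06 and 10.72 in anti-miR-210 ischemic muscle, against 9.45, 9.14, 9.09 and 9.75 in non-ischemic muscle after anti-miR-210. It was 11.15, 10.88, 10.21 and 10.68 in scramble ischemic muscle, against 9.94, 9.68, 9.03 and 9.22 in scramble non-ischemic muscle. Every ischemic array was above every non-ischemic array of the same oligonucleotide, by 1.6 ± 0.22 or 3.02-fold (adjusted p = 5.89e-06) and by 1.26 ± 0.22 or 2.39-fold (adjusted p = 8.18e-05). With each array scaled to its median instead, the scramble value was 0.35 and was not called (adjusted p = 0.431). A further Cox6a1 probe changed by 1.68 ± 0.25 after anti-miR-210 and by 0.66 ± 0.25 after scramble. Untreated muscle had Cox6a1 levels of 9.75, 9.95 and 10.26.

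Subunit IV also has a general form, Cox4i1, and a form, Cox4i2, known for expression in lung and for induction by low oxygen in cultured cells. The Cox4i1 level was 12.16, 12.46, 12.42 and 12.04 in anti-miR-210 ischemic muscle, against 12.95, 12.85, 12.8 and 12.93 in non-ischemic muscle after anti-miR-210. It was 12.2, 12.49, 12.64 and 12.31 in scramble ischemic muscle, against 13.39, 13.15, 13.03 and 13.47 in scramble non-ischemic muscle. Cox4i1 was lower on all ischemic arrays, with log2 changes of -0.61 ± 0.13 and -0.85 ± 0.13.

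The Cox4i2 level was 5.58, 5.49, 5.75 and 6.22 in scramble ischemic muscle, against 4.82, 4.74, 4.66 and 4.5 in scramble non-ischemic muscle. All scramble ischemic arrays were higher, by 1.08 ± 0.29 (adjusted p = 0.00385), but with array brightness as a covariate the value was 0.64 and was not called (adjusted p = 0.153). After anti-miR-210 the level was 5.54, 5.37, 4.42 and 5.87 in ischemic muscle, against 5.73, 4.63, 4.34 and 4.67 in non-ischemic muscle. Those groups overlapped and the value of 0.46 ± 0.29 was not called (adjusted p = 0.205), but it was called without anti-miR-210 ischemic replicate 3 (0.75, adjusted p = 0.0216) or anti-miR-210 non-ischemic replicate 1 (0.75, adjusted p = 0.0226), with array brightness as a covariate (0.83, adjusted p = 0.04) and with median scaling (0.88, adjusted p = 0.0141). The probe was dim and was detected on 15 of 19 arrays. Its mean deposited intensity was 116.6 in anti-miR-210 ischemic, 99.6 in scramble ischemic, 86.4 in anti-miR-210 non-ischemic and 88.9 in scramble non-ischemic muscle.

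**Figure D2:**
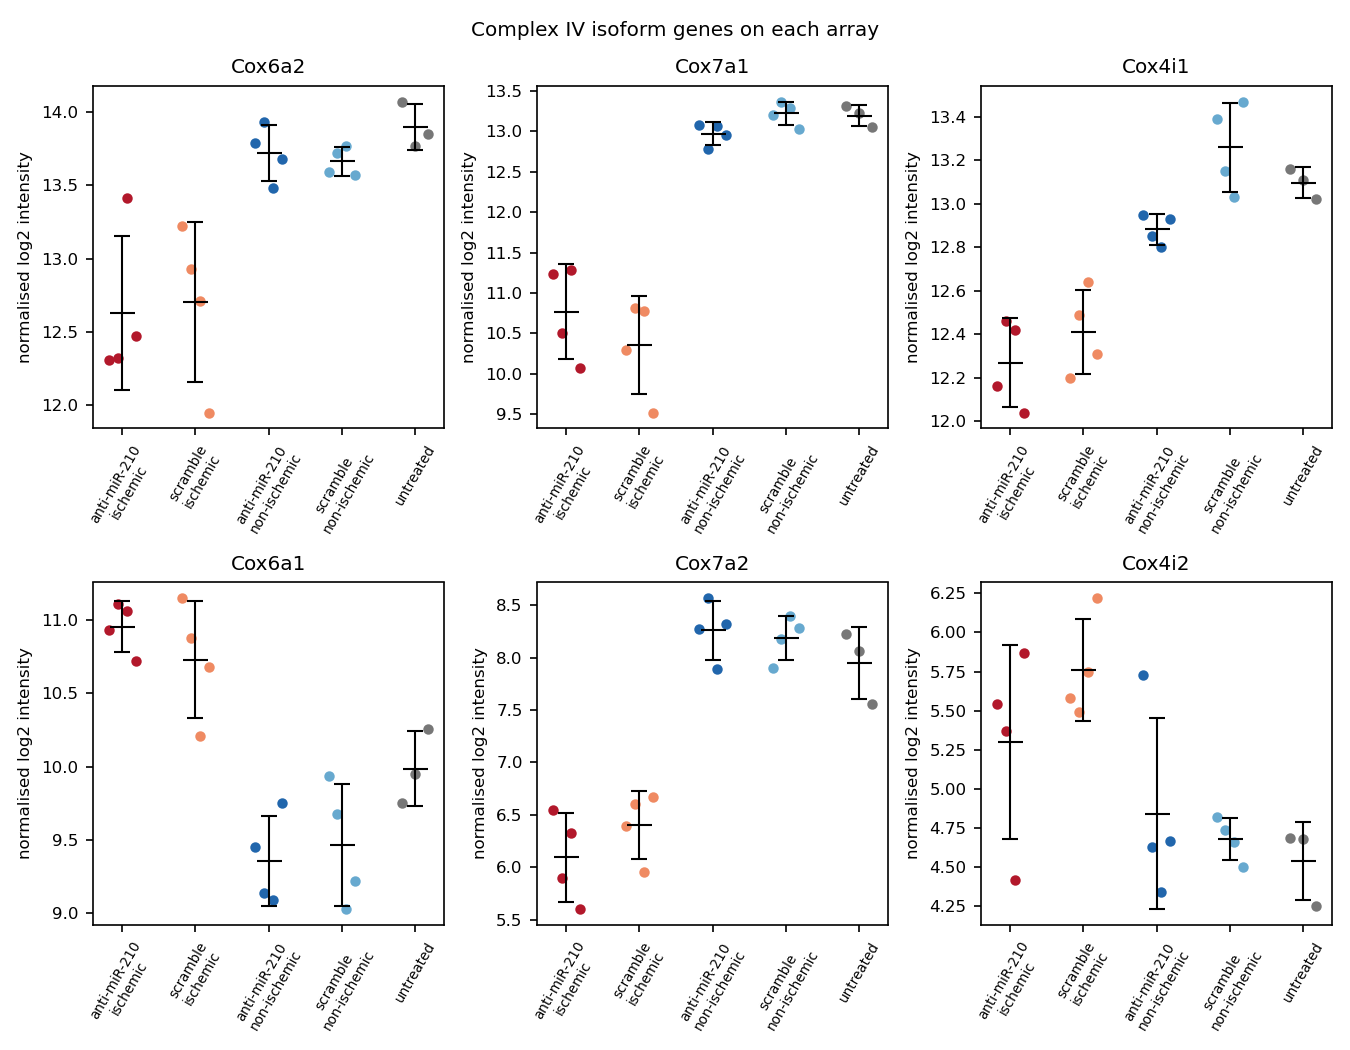
Normalised log2 intensity (y axis) of 6 complex IV isoform genes on each array (points), by group (x axis), with the mean and SD (bars). The striated-muscle forms Cox6a2 and Cox7a1 and the general forms Cox4i1 and Cox7a2 are lower on the ischemic arrays, whereas Cox6a1 is higher.

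Isoform balance was compared as the difference of 2 genes' log2 levels on the same array. Because 2 probes can differ in brightness for the same amount of RNA, only the shift of this difference between groups can be read. With 4 arrays each, the two-sided exact permutation test cannot give less than p = 0.0286, and p-values were adjusted over the 3 pairs within a comparison. Cox6a2 minus Cox6a1 shifted by -2.22 ± 0.35 after scramble (1.97 ± 0.51 on ischemic arrays against 4.19 ± 0.46 on non-ischemic arrays, SD, n = 4 each, exact p = 0.0286, adjusted p = 0.0429). After anti-miR-210 it shifted by -2.69 ± 0.31, and the groups did not overlap. The exact p = 0.0286 was the smallest value possible, but the adjusted p was 0.0856. With 3 pairs adjusted together, a pair could pass only if another pair also reached that smallest value. Cox4i2 minus Cox4i1 reached it after scramble but not after anti-miR-210, so the adjusted p cannot rank these shifts of Cox6a2 minus Cox6a1. Cox4i2 minus Cox4i1 shifted by 1.93 ± 0.24 after scramble (exact p = 0.0286, adjusted p = 0.0429), and the value after anti-miR-210 was 1.07 ± 0.48 (exact p = 0.0571, adjusted p = 0.0856). The Cox4i2 level of 4.5 to 4.82 in scramble non-ischemic muscle lay near the weakest signals. A fall of Cox4i2 could hardly be read there, which limits this balance.

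The Cox7a1 minus Cox7a2 balance did not pass the test in either ischemia comparison. The value after scramble was -1.08 ± 0.43 (exact p = 0.0571, adjusted p = 0.0571). It passed with quantile normalisation alone (-1.57), with median scaling (-1.74) and with the processed values (-1.43, adjusted exact p = 0.0286 each). After anti-miR-210 the value was -0.04 ± 0.22 (exact p = 0.914, adjusted p = 0.914). Whether these 2 shifts differ between oligonucleotides was not tested. Between the ischemic groups themselves, anti-miR-210 minus scramble was 0.72 ± 0.43 for this balance (exact p = 0.114, adjusted p = 0.342), with differences of 4.47 to 4.95 in anti-miR-210 ischemic and 2.84 to 4.83 in scramble ischemic muscle. The adjusted exact p was 0.257 to 0.657 for the other 5 tests of the 3 balances between oligonucleotides, in ischemic or in non-ischemic muscle. The matching pair for subunit VIII was not analysed here, since no target name for Cox8a was in the table used.

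Cox8b, the striated-muscle form of subunit VIII, fell without overlap. Its level was 11.67, 11.78, 12.24 and 11.67 in anti-miR-210 ischemic muscle, against 13.27, 13.59, 13.22 and 13.62 in non-ischemic muscle after anti-miR-210. After scramble it was 11.96, 11.83, 11.8 and 10.94 in ischemic muscle, against 13.27, 13.3, 13.18 and 13.6 in non-ischemic muscle. The changes were -1.59 ± 0.2 (adjusted p = 1.82e-06) and -1.7 ± 0.2 (adjusted p = 7.5e-07), or 3-fold and 3.25-fold lower.

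The remaining complex IV subunits have no muscle form described here. Cox7b, a small membrane subunit, had levels of 6.79, 5.36, 5.82 and 5.18 in anti-miR-210 ischemic muscle, against 9.06, 7.78, 8.42 and 8.4 in non-ischemic muscle after anti-miR-210. After scramble it had 5.75, 5.79, 5.32 and 5.88 in ischemic muscle, against 7.89, 7.89, 8.5 and 8.6 in non-ischemic muscle. The groups were apart in both, with changes of -2.63 ± 0.3 and -2.54 ± 0.3. Cox5a and Cox6c, which both fell, changed by -1.32 ± 0.17 and -1.28 ± 0.17 after anti-miR-210 and by -1.29 ± 0.17 and -1.22 ± 0.17 after scramble. Cox5b, which binds zinc, changed by -0.78 ± 0.16 and -1.05 ± 0.16, and Cox6b1, which lies between the monomers of the complex IV dimer, by -0.56 ± 0.13 and -0.83 ± 0.13, after anti-miR-210 and after scramble in turn. Cox7a2l, a factor that joins complexes III and IV into supercomplexes, changed by -1.11 ± 0.32 after anti-miR-210, where replicate 3 at 9.72 reached the non-ischemic range of 9.51 to 10.2, and by -1.61 ± 0.32 after scramble.

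Cox6b2, the testis form of subunit VIb, was near the lower end of the scale everywhere. Its level was 4.68, 4.37, 4.65 and 4.77 in anti-miR-210 ischemic muscle, against 4.47, 4.26, 4.91 and 4.22 in non-ischemic muscle after anti-miR-210. In scramble ischemic muscle it was 4.59, 4.72, 4.83 and 4.59, against 4.42, 4.41, 4.63 and 4.17 in scramble non-ischemic muscle. It was detected on 8 of 19 arrays, the groups overlapped and neither comparison called it.

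In complex V, RNA of most genes of the catalytic F1 head and of the membrane-bound Fo part was lower, and protein was not measured. The F1 subunit genes are Atp5a1 (alpha), Atp5b (beta), Atp5c1 (gamma), Atp5d (delta) and Atp5e (epsilon), and all but Atp5b fell in both comparisons. The alpha subunit gene Atp5a1 had levels of 8.82, 7.1, 7.4 and 6.94 in anti-miR-210 ischemic muscle, against 10.44, 10.16, 10.35 and 10.57 in non-ischemic muscle after anti-miR-210. After scramble it had 8.67, 8.83, 8.68 and 8.63 in ischemic muscle, against 9.98, 9.89, 10.53 and 10.48 in non-ischemic muscle. All ischemic arrays were lower, by 7.04-fold after anti-miR-210 (log2 change -2.82 ± 0.31, adjusted p = 3.98e-07) and by 2.87-fold after scramble (-1.52 ± 0.31, adjusted p = 0.000378).

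The gamma, delta and epsilon genes changed by -0.92 ± 0.16, -1.31 ± 0.18 and -1.64 ± 0.22 after anti-miR-210 and by -0.83 ± 0.16, -1.45 ± 0.18 and -1.69 ± 0.22 after scramble. Atp5b, which encodes the catalytic beta subunit, had levels of 13.82, 13.42, 13.93 and 13.44 in anti-miR-210 ischemic muscle, against 13.8, 13.35, 13.73 and 13.41 in non-ischemic muscle after anti-miR-210. It had 13.53, 13.8, 13.54 and 13.48 in scramble ischemic muscle, against 13.85, 13.54, 13.57 and 13.54 in scramble non-ischemic muscle. These arrays overlapped throughout, and the values of 0.08 ± 0.16 and -0.04 ± 0.16 were not called (adjusted p = 0.71 and 0.872). The Atp5b value after scramble depended on the scaling, at 0.85 with cyclic loess (adjusted p = 0.00404) and -0.81 with median scaling (adjusted p = 0.00734).

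In the Fo part and stalk, Atp5pb (subunit b of the peripheral stalk) had the largest fall of complex V after scramble. Its level was 8.9, 8.63, 7.76 and 7.95 in scramble ischemic muscle, against 10.94, 10.65, 10.94 and 11.01 in scramble non-ischemic muscle. After anti-miR-210 it was 9.09, 9.08, 10.04 and 8.43 in ischemic muscle, against 11.05, 10.72, 11.12 and 11.31 in non-ischemic muscle. The groups were apart in both, with changes of -2.58 ± 0.27 (5.96-fold lower, adjusted p = 2.73e-07) and -1.89 ± 0.27 (3.7-fold lower, adjusted p = 1.16e-05).

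The other stalk genes, Atp5h (subunit d), Atp5j (coupling factor 6) and Atp5o (the oligomycin sensitivity protein), changed by -1.64 ± 0.22, -1.15 ± 0.26 and -0.94 ± 0.2 after anti-miR-210. They changed by -1.97 ± 0.22, -1.42 ± 0.26 and -0.92 ± 0.2 after scramble. Of the c-ring genes, Atp5g2 changed by -1.35 ± 0.26 and -1.29 ± 0.26, and Atp5g3 by -0.36 ± 0.13 (adjusted p = 0.0247) and -0.41 ± 0.13 (adjusted p = 0.0114), after anti-miR-210 and after scramble in turn. The scaling decided the Atp5g3 direction: with cyclic loess its values were 0.02 after anti-miR-210 and 0.5 after scramble. No target name for the c-ring gene Atp5g1 was in the table used, and it was not analysed here.

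The small membrane subunits Atp5j2 (f), Atp5k (e) and Atp5l (g) changed by -0.59 ± 0.17, -1.05 ± 0.2 and -0.4 ± 0.16 after anti-miR-210 and by -0.76 ± 0.17, -0.94 ± 0.2 and -0.93 ± 0.16 after scramble. Atp5k was dim, at 4.5 to 4.89 in anti-miR-210 ischemic and 4.44 to 5.22 in scramble ischemic muscle. These levels lie near the weakest signals, which limits how far the size of its fall can be read. The Atp5l call after anti-miR-210 (adjusted p = 0.0447) was lost without any one of 6 arrays (adjusted p = 0.0603 to 0.192), namely anti-miR-210 ischemic replicates 2 and 4 and the 4 anti-miR-210 non-ischemic replicates. It was also lost with cyclic loess (-0.24, adjusted p = 0.195) and median scaling (-0.6, adjusted p = 0.0876). The same held with no filter on dim probes (adjusted p = 0.0626) and with only the groups compared in the fit (adjusted p = 0.123). A further Atp5l probe changed by -0.99 ± 0.23 after anti-miR-210 (p adjusted over all kept probes = 0.00133) and by -1.65 ± 0.23 after scramble. The Atp5g3 call after anti-miR-210 was lost without anti-miR-210 ischemic replicate 2 or 4 or anti-miR-210 non-ischemic replicate 2 or 4 (adjusted p = 0.0542 to 0.0821). Median scaling (adjusted p = 0.125) and a fit of only the groups compared (adjusted p = 0.0545) also lost it.

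The 3 tested targets that are no subunits differed among themselves. Emc8, listed in the table as Cox4nb because it neighbours Cox4i1, belongs to the membrane protein insertion complex of the endoplasmic reticulum. Its level was 7.33, 7.4, 7.85 and 7.71 in anti-miR-210 ischemic muscle, against 6.7, 6.28, 6.72 and 6.5 in non-ischemic muscle after anti-miR-210. It was 7.28, 7.45, 7.48 and 7.76 in scramble ischemic muscle, against 6.72, 6.49, 6.35 and 6.59 in scramble non-ischemic muscle. Emc8 was higher on every ischemic array, by 1.02 ± 0.15 after anti-miR-210 and 0.95 ± 0.15 after scramble (0.45, adjusted p = 0.12, with median scaling), and a further Emc8 probe changed by 0.65 ± 0.26 and 1.59 ± 0.26. Dmac2, an assembly factor of complex I, changed by -1.78 ± 0.19 and -1.67 ± 0.19, and Dmac2l, also called factor B of the ATP synthase, by -1.67 ± 0.22 and -1.66 ± 0.22.

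How far a member fell also varied between probes of 1 gene. Of the 36 members, 10 had further detected probes, 13 in all, and the estimates of all 13 had the sign of the brightest probe in both ischemia comparisons. Only the sign was compared, and dim further probes of Atp5k, Atp5o and Cox7a2l missed the threshold. The Atp5k probe, at a mean level of 4.4, gave -0.37 ± 0.16 after anti-miR-210 and -0.22 ± 0.16 after scramble. The Cox7a2l probe, at 5.02, missed it after anti-miR-210 only, at -0.51 ± 0.37. Of the 7 further probes with a mean level of at least 7, 6 changed more than the brightest probe of their gene after anti-miR-210 and 5 after scramble. For Cox5b the further probe changed by -1.67 ± 0.21 after anti-miR-210 and by -1.87 ± 0.21 after scramble, where the brightest gave -0.78 ± 0.16 and -1.05 ± 0.16. For Atp5o a further probe at a mean level of 7.18 changed by -1.19 ± 0.25 and -1.82 ± 0.25, where the brightest gave -0.94 ± 0.2 and -0.92 ± 0.2. The other further Atp5o probe, at a mean level of 4.31, gave -0.19 ± 0.14 and -0.06 ± 0.14 (limma p adjusted over all kept probes = 0.281 and 0.758). The 5 members with a mean level of at least 13 had a median change of -0.4 after anti-miR-210 and -0.76 after scramble, and the other 31 had -1.15 and -1.3. The part of probe brightness in the size of a change was not tested, and folds of the brightest members are those of their brightest probe.

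**Figure D3:**
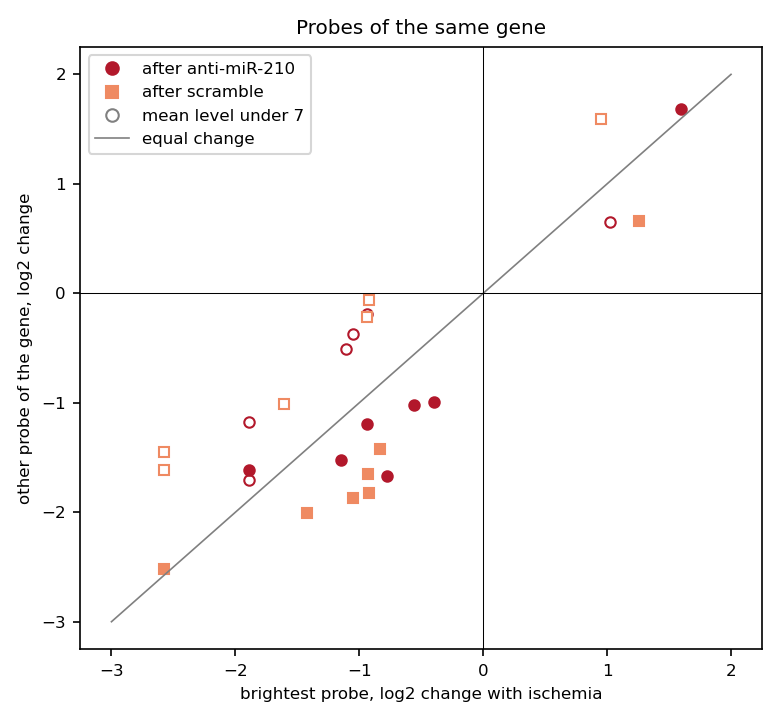
Log2 change with ischemia of each further probe (y axis) against that of the brightest probe of the same gene (x axis), for 10 members and 13 further probes, after anti-miR-210 (circles) and after scramble (squares); open symbols have a mean level under 7 and the line marks equal change. Each further probe has the sign of the brightest one, and most filled symbols for genes that fell lie below the line.

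Promoter windows, 250 bases before to 50 after the annotated start (RefSeq, GRCm38.p6), were at hand for 30 of the 40 members. These had 34 windows, since a gene can have several starts, and a gene counted as holding a motif when any of its windows did. They were searched on both strands for short motifs of factors known to act at nuclear genes of the respiratory chain: CGCATGCG for NRF1, CCGGAAG for GABPA and other ETS factors, AAGATGGC for YY1 and AAGGTCA for estrogen-related receptors, and for TAAAAATA, bound by the muscle factor MEF2. The NRF1 letters were in the windows of 7 of 30 members (23.3%) and of 2.8% of 17492 protein-coding genes, and the ETS letters in 9 of 30 (30%) and 12.9%. The YY1 letters and the estrogen-related receptor letters were each in 4 of 30 (13.3%), beside 3.6% and 4.7% of protein-coding genes, and the MEF2 letters were in none, beside 2.5%. Of the 7 members with NRF1 letters, Cox6a1 rose and Atp5g2, Atp5j, Atp5k, Atp5l, Uqcr11 and Uqcrc1 fell with ischemia. These matches are a description of the sequence, not of binding. The windows of 3 members are shown with motif matches in capitals: Cox7a1, which fell most after scramble, at chr7:30183921-30184220 on the plus strand, Atp5j, which fell, at chr16:84834927-84835226 on the minus strand (1 of its 2 windows), and Cox6a1, which rose, at chr5:115348909-115349208 on the minus strand.
Cox7a1: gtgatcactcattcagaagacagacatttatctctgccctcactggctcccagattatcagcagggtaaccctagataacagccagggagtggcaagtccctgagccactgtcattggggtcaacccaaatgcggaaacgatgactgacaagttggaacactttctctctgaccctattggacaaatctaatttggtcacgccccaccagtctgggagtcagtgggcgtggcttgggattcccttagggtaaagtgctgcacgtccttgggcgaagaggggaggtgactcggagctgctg
Atp5j: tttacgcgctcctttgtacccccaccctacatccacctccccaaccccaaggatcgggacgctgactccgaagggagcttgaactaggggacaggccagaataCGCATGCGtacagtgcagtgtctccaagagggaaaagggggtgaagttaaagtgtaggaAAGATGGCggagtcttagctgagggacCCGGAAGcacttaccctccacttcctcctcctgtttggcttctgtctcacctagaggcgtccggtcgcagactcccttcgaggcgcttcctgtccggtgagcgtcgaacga
Cox6a1: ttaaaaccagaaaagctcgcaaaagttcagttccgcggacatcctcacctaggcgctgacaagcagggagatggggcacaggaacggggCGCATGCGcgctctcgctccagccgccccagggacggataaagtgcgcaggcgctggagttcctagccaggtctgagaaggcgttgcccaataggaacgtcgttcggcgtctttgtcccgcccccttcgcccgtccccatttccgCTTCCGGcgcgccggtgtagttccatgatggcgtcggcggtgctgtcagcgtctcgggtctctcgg
The Cox7a1 window held none of the 5 motifs. The Atp5j window shown held the NRF1, YY1 and ETS letters, starting at bases 104, 163 and 190, and the Cox6a1 window held the NRF1 and ETS letters at bases 90 and 235. The other Atp5j window, at chr16:84835576-84835875, held none of the motifs. None of these matches overlapped another.

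Other genes of the 3 complexes that do not carry these name stems were described from a list of 35 names, of which 27 were tested. After anti-miR-210, 19 fell and 1 rose (median -1.05), and after scramble 18 fell and 1 rose (median -0.87). Beside them, 24.3% of all tested targets were called lower after anti-miR-210 and 24.5% after scramble. The 3 with the smallest adjusted p after scramble were Tmem70, an assembly factor of complex V (-1.85 ± 0.19 after anti-miR-210 and -2.01 ± 0.19 after scramble), Cox10 (-1.31 ± 0.15 and -1.55 ± 0.15) and Atpif1. Atpif1, the inhibitor that binds the ATP synthase and blocks ATP hydrolysis, was the gene that rose, by 2.4 ± 0.18 after anti-miR-210 (adjusted p = 2.96e-09) and by 1.84 ± 0.18 after scramble (adjusted p = 8.44e-08). The mitochondrially encoded partners on the array were looked at after their values were seen. The complex V gene mt-Atp6 changed by -1.17 ± 0.16 after anti-miR-210 (adjusted p = 4.3e-06) and by -0.45 ± 0.16 after scramble (adjusted p = 0.0225). The complex IV gene mt-Co2 changed by -1.21 ± 0.21 after anti-miR-210 (adjusted p = 7.83e-05), and its value after scramble was -0.33 ± 0.21 (adjusted p = 0.205). The complex III gene mt-Cytb was not called, at 0.09 ± 0.16 and 0.2 ± 0.16.

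Of 16 tested regulators of mitochondrial gene expression, 8 fell and 3 rose after anti-miR-210, and 7 fell and 3 rose after scramble. Their median changes were -0.55 and -0.39. Among all tested targets, 24.3% were called lower and 26.2% higher after anti-miR-210, and 24.5% and 26.7% after scramble. The 3 with the smallest adjusted p after scramble all fell. They were Tfb2m, a factor for transcription of mitochondrial DNA (-1.49 ± 0.18 after anti-miR-210 and -2.42 ± 0.18 after scramble), Esrrg, an estrogen-related receptor (-2.75 ± 0.21 and -2.85 ± 0.21), and Ppargc1a, the coactivator PGC-1alpha (-2.34 ± 0.25 and -2.51 ± 0.25).

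The next question was whether anti-miR-210 altered these genes in ischemic muscle. Of the 36 members, limma called 1, Uqcrb, and 1.09% of all tested targets were called. The median log2 difference of anti-miR-210 minus scramble over the members was 0.06, beside 0.01 over all targets, and 4 members had an unadjusted p under 0.05. The share of all tested targets under that unadjusted level was not counted, here or in the comparisons below. Uqcrb was lower after anti-miR-210, with a log2 difference of -1.33 ± 0.28 (2.52-fold lower, adjusted p = 0.0372), with levels of 6.88, 6.49, 6.06 and 7.63 in anti-miR-210 ischemic and 7.81, 7.38, 8.36 and 8.83 in scramble ischemic muscle. The highest anti-miR-210 array passed the lowest scramble array. On the deposited scale, Uqcrb read 187, 229.6, 172.3 and 271.5 in anti-miR-210 ischemic and 233.7, 212.5, 217.9 and 238.6 in scramble ischemic muscle, groups that overlapped widely. The Uqcrb call was lost when only the 4 arrays of each group compared entered the fit (adjusted p = 0.316), with array brightness as a covariate (-0.44, adjusted p = 0.91) and with median scaling (-0.28, adjusted p = 0.224). It was also lost without scramble ischemic replicate 1, 3 or 4 or anti-miR-210 ischemic replicate 2 or 3 (adjusted p = 0.0516 to 0.144).

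Atp5a1 had a difference of -1.14 ± 0.31 between the ischemic groups that was not called (adjusted p = 0.0797). Its levels of 8.82, 7.1, 7.4 and 6.94 in anti-miR-210 ischemic muscle lay below the 8.67, 8.83, 8.68 and 8.63 of scramble ischemic muscle on 3 of 4 arrays. Without anti-miR-210 ischemic replicate 1 the difference was -1.55 (adjusted p = 0.00253), and over all alternatives it lay between -1.55 and -0.06. The deposited Atp5a1 intensities were 505.2, 314.6, 333.8 and 198 in anti-miR-210 ischemic and 357.6, 456.4, 254 and 217 in scramble ischemic muscle, and did not separate the groups.

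Atp5pb had a difference of 0.85 ± 0.27 (adjusted p = 0.132), called without anti-miR-210 ischemic replicate 4 (1.1, adjusted p = 0.017), and over all alternatives it lay between 0.08 and 1.75. Of the 3 further Atp5pb probes, 1 of similar level gave 0.82 ± 0.29, and the 2 dimmer ones, at mean levels of 5.76 and 5.62, gave 0.04 ± 0.16 and -0.22 ± 0.32. The last member with an unadjusted p under 0.05 was Atp5l, at 0.38 ± 0.16 (adjusted p = 0.243). Over the 13 further probes of members, 8 differed in the same direction as the brightest probe. Scaling each array to its median put the median of all tested targets at 0.58, and under it 24 members were called higher in anti-miR-210 ischemic than in scramble ischemic muscle, with a median of 0.87. The share of all targets called under this scaling was not counted, so the 24 cannot be read as particular to the members. Scramble ischemic arrays were the dimmest on average, and the part of brightness in these differences was not tested. Cox10 had a difference of 0.35 ± 0.15 between the ischemic groups (adjusted p = 0.247).

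**Figure D4:**
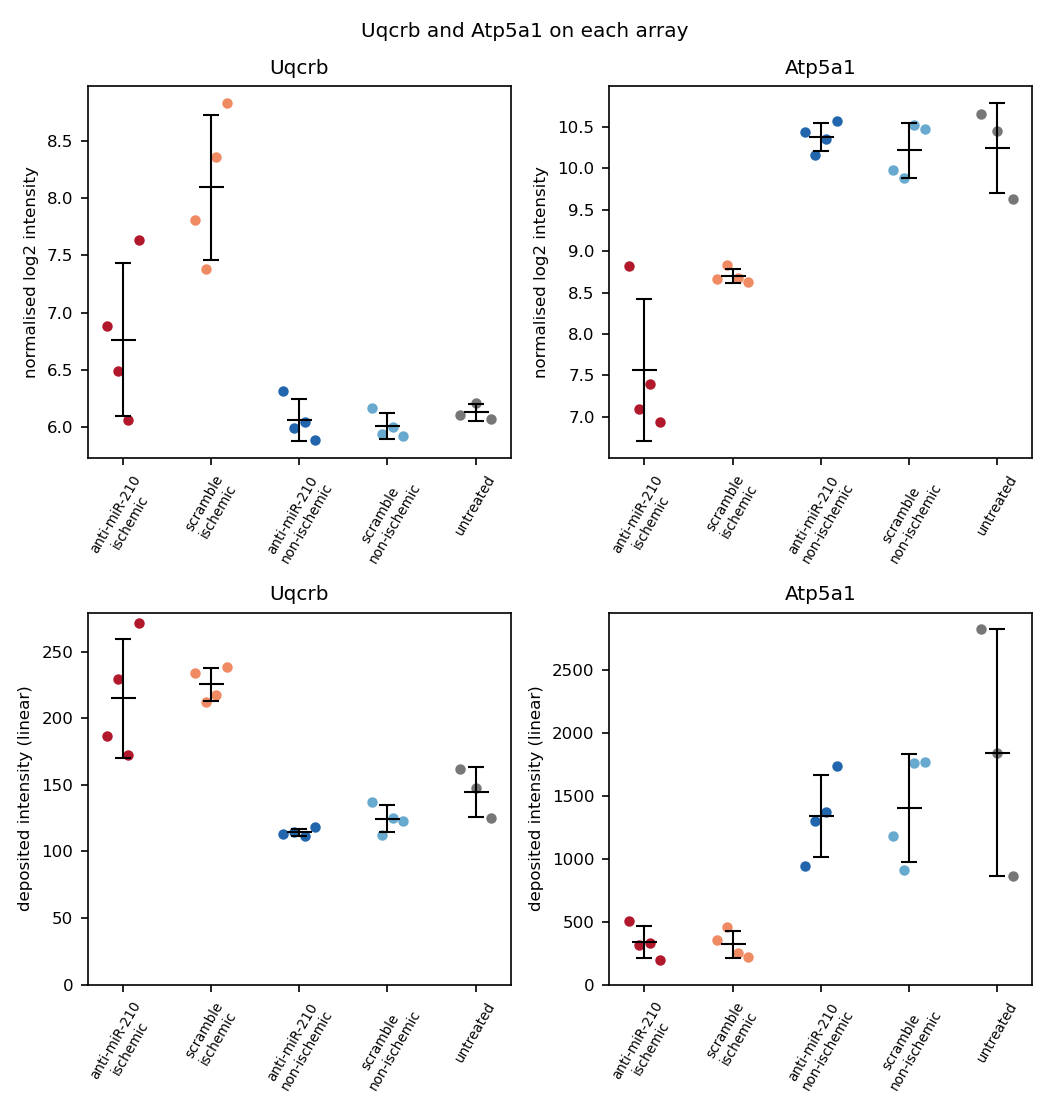
Uqcrb and Atp5a1 on each array (points) by group (x axis), as normalised log2 intensity (upper row) and as deposited linear intensity (lower row), with the mean and SD (bars). On the normalised scale 3 of 4 anti-miR-210 ischemic arrays lie below every scramble ischemic array for each gene, and on the deposited scale the ischemic groups overlap.

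In non-ischemic muscle no member was called between anti-miR-210 and scramble by limma, 1 had an unadjusted p under 0.05 (Cox4i1, -0.38 ± 0.13, adjusted p = 0.704), and 0.0196% of all targets were called. The Cox4i1 level was 12.95, 12.85, 12.8 and 12.93 in anti-miR-210 non-ischemic and 13.39, 13.15, 13.03 and 13.47 in scramble non-ischemic muscle, without overlap. It was 1 of 2 members without overlap here, the other being Uqcrh (-0.29 ± 0.19, adjusted p = 0.879). The share of all targets without overlap was not counted in this comparison, so nothing can be read from the separation. The difference of the ischemia responses, anti-miR-210 minus scramble, was called for no member by limma, and 3 had an unadjusted p under 0.05. The background for it was again 0.0196%, and under median scaling, which put the median of all targets at 0.72, 17 members were called higher and none lower. The share of all targets called under that scaling was not counted here either. Uqcrb had a response difference of -1.39 ± 0.4 and Atp5a1 of -1.3 ± 0.44 (adjusted p = 0.445 each). Without anti-miR-210 ischemic replicate 4 the Uqcrb response difference was -1.67 and was called (adjusted p = 0.041).

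Against untreated muscle, no member was called by limma after either oligonucleotide. The share of all targets called was 5.63% for anti-miR-210 non-ischemic and 2.81% for scramble non-ischemic muscle, and all 11 tested liver markers were called lower in both comparisons. An unadjusted p under 0.05 was found for 4 members in each, and Cox6a1, Dmac2 and Emc8 were among them both times. Cox6a1 differed by -0.63 ± 0.24 in non-ischemic muscle after anti-miR-210 (adjusted p = 0.137) and by -0.52 ± 0.24 in scramble non-ischemic muscle (adjusted p = 0.318), which share the untreated arrays. Without the 2 untreated arrays highest in liver transcripts, which leaves 1 untreated array assumed to vary like the other groups, these values were -0.39 and -0.28, and again no member was called.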

How the data were processed

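The members and gene lists were chosen with earlier results of these data known. The authors' deposited table gives, per probe and array, an Illumina intensity without normalisation and a p-value of detection (per the file headers). The table of processed values, which the submitters deposited, holds intensities on a linear scale that matched a quantile normalisation without background subtraction and served as an alternative. Scanner software and array design were not given in the sources used here. Intensities of 45281 probes were background-corrected, quantile-normalised and log2-transformed with limma 3.58.1 (neqc, offset 16) in R 4.3.3. Probes detected (p under 0.05) on at least 3 of 19 arrays were kept, and the brightest stood for a target. One limma model with a mean per group was fitted over all 19 arrays, with Benjamini-Hochberg adjustment over 15287 targets. The fit was first tested on simulated data, with changes added to scramble ischemic arrays. It recovered 10.4% of log2 changes of 0.5, 73.1% of changes of 1 and 95.5% of changes of 2, with 14 false calls. Small differences that were not called may therefore have been missed. Isoform balances were tested by exact permutation. Gene names came from RefSeq, 35 members by symbol and 5 by synonym (Uqcr11, Atp5pb, Dmac2l, Dmac2 and Emc8). Arrays differed in brightness, and their number limits the precision. Per-array values were given for complex IV isoform genes except Cox6b1, for members opposite to most others and for the largest and smallest change in each complex after scramble. They were also given for Atp5a1, which had the largest fall of complex V after anti-miR-210. Alternatives covered normalisation, detection rules, probe summary, array brightness, replicate numbers and leaving out each array.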

Additional observations from a re-analysis of the deposited data

Results flagged for a closer look

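Dixon's test at the 95% level set 1 array apart in 8 of the 144 sets of 4 arrays of a member and group, and chance flags about 1 in 20. In anti-miR-210 ischemic muscle, Cox6a2 was 13.41 on replicate 3 and 12.31 to 12.47 on the others. In scramble ischemic muscle, replicate 4 was low for Cox8b, at 10.94 beside 11.8 to 11.96, and for Dmac2l, at 5.43 beside 6.12 to 6.2. In the same group, Atp5b was 13.8 on replicate 2 and 13.48 to 13.54 on the others. In anti-miR-210 non-ischemic muscle, replicate 4 was low for Atp5d, at 11.17 beside 11.6 to 11.65, and high for Atp5l, at 13.35 beside 13.18 to 13.2. In scramble non-ischemic muscle, Atp5b was 13.85 on replicate 1, the array with liver transcripts, beside 13.54 to 13.57, and Atp5l was 13.24 on replicate 3 beside 13.4 to 13.42.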

How the results depend on the processing

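Of 1438 member results under an alternative, 1377 kept their direction and their side of the threshold. These 1438 results covered all tested members only for the ischemia comparisons. Between the ischemic groups they covered Uqcrb, Atp5a1 and Atp5pb, and for the response difference Uqcrb and Atp5a1. Against untreated muscle they covered Cox6a1 alone. Member results between oligonucleotides in non-ischemic muscle were not among them. The members called lower with ischemia numbered 27 to 31 after scramble and 26 to 30 after anti-miR-210 over all alternatives. After scramble, median scaling gave 2 members higher, and the median change was -0.92 with cyclic loess, -2.08 with median scaling and -0.91 with array brightness as a covariate, which gave -1.35 after anti-miR-210. The Atp5b value after scramble turned to 0.85 with cyclic loess and to 0.04 without scramble non-ischemic replicate 1 (-0.11 to 0.04 leaving out 1 array), and after anti-miR-210 to -0.08 with median scaling and -0.01 without anti-miR-210 ischemic replicate 3 (-0.01 to 0.16 leaving out 1 array). With cyclic loess, Atp5g3 turned to 0.5 after scramble and 0.02 after anti-miR-210, and Cox7a1 minus Cox7a2 to 0.09 after anti-miR-210. That balance after scramble passed the test at -1.57 with quantile normalisation alone, -1.74 with median scaling and -1.43 with the processed values. With quantile normalisation alone, Cox6a2 minus Cox6a1 (-2.63) and Cox4i2 minus Cox4i1 (0.77) passed after anti-miR-210. Calls of smaller subunits were also lost: Atp5j2 with cyclic loess (-0.33 after anti-miR-210 and -0.19 after scramble), Atp5k with median scaling after anti-miR-210 (-0.58) and the covariate after scramble (-0.51), and Cox7a2l with median scaling after anti-miR-210 (-0.73).

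Between the ischemic groups, 0 members were called lower with median scaling, no filter on dim probes (Uqcrb adjusted p = 0.0711), the brightness covariate or only the groups compared. Leaving out 1 array gave 0 to 2 lower and 0 to 3 higher, and median scaling 24 higher with a median of 0.87. For the response difference, leaving out 1 array gave 0 to 1 lower, and median scaling 17 higher with a median of 1.06. Between oligonucleotides in non-ischemic muscle, median scaling gave a median of -0.14. Against untreated muscle, the scramble median was -0.04 with cyclic loess, -0.07 with median scaling, 0.03 with the covariate, -0.05 to 0.07 without 1 array and -0.07 without both liver-rich arrays. The anti-miR-210 median was -0.35, 0.1, -0.13 to 0.02 and -0.16 under median scaling, the covariate, leaving out 1 array and leaving out both. The share of all tested targets called under each alternative was not counted, and the causes were not tested.

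With the replicate number as a block, 29 members were lower after anti-miR-210 (Atp5l adjusted p = 0.0574) and 30 after scramble. Arrays with the same number correlated at 0.09 to 0.23 and 0.05 to 0.17 in these comparisons, on levels centred within each group. Arrays with different numbers were not set beside them, so these values cannot decide whether the numbers pair samples. The main fit did not pair samples. Dim probes such as those of Atp5k, Cox4i2, Cox6b2 and Uqcrb lie near background and limit what can be read from them.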
